A study of Mus musculus with 6 samples.

Results

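Most proteins that the liver sends into the blood enter the endoplasmic reticulum (ER) while they are being made, and the genes described here encode the machinery that lets them in, trims them, attaches sugars and forms their disulfide bonds. The set holds 36 genes of the 22851 rows of the deposited expression matrix, taken by gene symbol. They fall into 5 classes: signal recognition particle and its receptor (7 genes), translocon (10), signal peptidase (5), oligosaccharyltransferase (7) and folding enzymes (7). Each of the 36 was found, and each passed the filter on low values, which left 10743 genes to test.

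The libraries hold liver RNA of mice of the inbred C57BL/6J strain, males only, and both groups were fed a high-fat diet (HFD). One group received vehicle, and the other received ONX-0914, an inhibitor of the immunoproteasome subunit PSMB8, at 10 mg/kg under the skin every other day for 6 weeks. Each group has 3 libraries, vehicle 1, 2 and 4 and ONX-0914 1, 3 and 4. The design text speaks of 2 biological replicates in each group, and the labels do not say which libraries are separate animals, so a p-value here covers only the spread among libraries, which may be technical. No source used here states the age of the mice, and every animal was on the diet, so no value for a lean liver enters.

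In this pathway the signal recognition particle (SRP) binds the signal peptide of a nascent chain and brings the ribosome to its receptor on the ER. The chain passes through the SEC61 channel, signal peptidase cuts the signal peptide off, and the oligosaccharyltransferase (OST) moves a preassembled sugar tree onto asparagines. Protein disulfide isomerases, proline isomerases and the lectin calnexin then help the chain to fold. Hepatocytes carry a dense rough ER for plasma proteins, and several of these genes are known targets of the unfolded protein response, the program that enlarges ER capacity.

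Of the 36 genes, 9 rose and 9 fell with ONX-0914, and 18 were not called. Values are FPKM, fragments per length of transcript and size of library, and a fold change is the difference of the group means of log2(FPKM + 1), tested with limma at an adjusted p under 0.05 over the 10743 genes. Over all tested genes 2.56% were called higher and 43.5% lower. Among the 4744 tested genes (a background chosen after the data were seen) with a mean of at least 10 FPKM, the range where all 36 members lie, 4.85% were called higher and 36.5% lower. The members' median log2 fold change was 0.01, against -0.64 for all tested genes and -0.41 for the abundant ones. Members that rose were Sec61b and Sec61g of the translocon, Rpn1 and Ddost of the OST, and Pdia3, Pdia4, Pdia6, Fkbp2 and Fkbp11 among the folding enzymes. Those that fell were Srp72 and Srpr, Sec62, Ssr3 and Tram1, Spcs1 and Spcs3, Stt3b, and Canx. No SRP or signal peptidase gene was called higher. The libraries of the groups did not overlap for 10 members that lay above vehicle and 9 that lay below, where 4.93% and 53.5% of all tested genes did so.

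The treated libraries were not alike, and ONX-0914 3 differed from 1 and 4 most in the genes that fell. In ONX-0914 1, 3 and 4 the 9 genes that rose had median log2 deviations from the vehicle mean of 0.90, 0.96 and 0.83, and each gene was above every vehicle library in each treated library. For the 9 genes that fell the medians were -1.61, -0.29 and -1.10, so ONX-0914 3 lay much closer to vehicle. It was the treated library nearest to the vehicle mean in 7 of the 9 falls, all but Spcs1 and Spcs3, and in 5 of the 9 rises, Sec61b, Sec61g, Ddost, Fkbp2 and Fkbp11. In the other 4 rises, Rpn1, Pdia3, Pdia4 and Pdia6, it was the farthest. Its value was below the vehicle range for 8 of the 9 falls, and inside it for Tram1. Set alone against the vehicle libraries, with its spread assumed to be theirs, ONX-0914 3 had 6 members called higher (Fkbp11, Pdia3, Pdia4, Pdia6, Rpn1 and Sec61g) and 2 called lower (Spcs1 and Spcs3), where 2.88% and 27.9% of all tested genes were called. Without it 10 members were called higher and 13 lower, against 6.89% and 60.6% of all tested genes. With any 1 library left out, Fkbp11, Pdia3, Pdia4, Rpn1 and Sec61g were still called higher and Spcs3 lower, and the other calls were lost in at least 1 case. Without vehicle 1, 2 or 4 there were 5, 6 and 5 members called higher and 1, 2 and 1 lower. Of the 10743 tested genes 92, 124 and 111 were then called higher and 2590, 2840 and 2966 lower. Without ONX-0914 1 or 4 there were 6 and 5 members called higher and 2 and 2 lower. Of all tested genes 141 and 134 were then called higher and 3197 and 3025 lower. With all 6 libraries 275 and 4673 were called, so calls were lost over all genes and not only among the members. In the plot of deviations by library, the diamonds of ONX-0914 3 lie to the right of the vehicle bar for each gene that rose, by little for Sec61b.

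**Figure D1:**
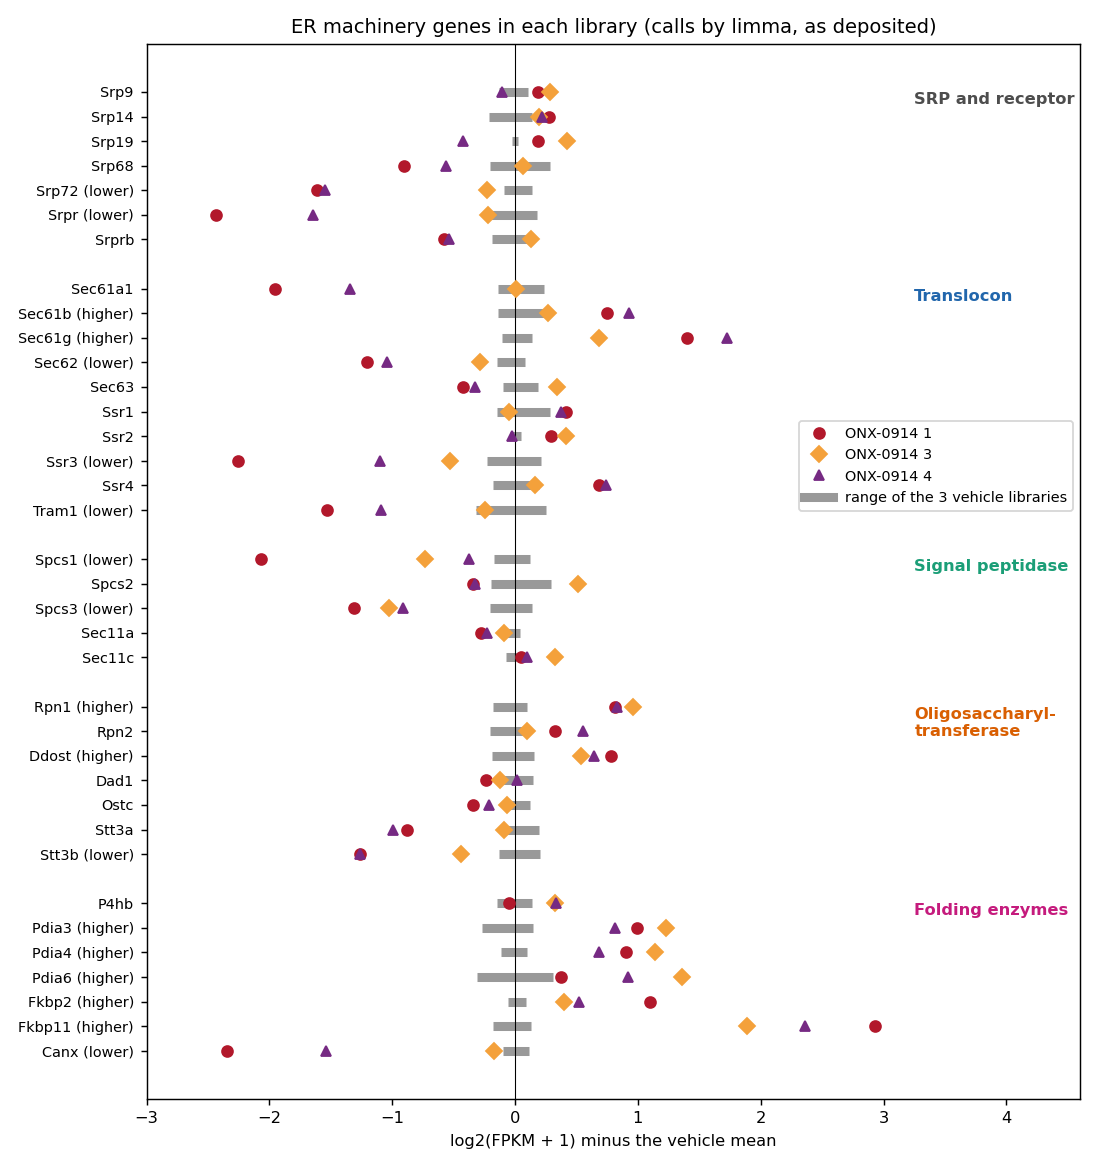
Deviation of each library from the vehicle mean on the log2(FPKM + 1) scale (x axis) for the 36 genes (y axis), grouped by class. Grey bars span the 3 vehicle libraries, symbols are the 3 ONX-0914 libraries, and calls are those of limma on the deposited values; for Canx, ONX-0914 1 and 4 lie far to the left while ONX-0914 3 lies beside the vehicle bar, and for Fkbp11 each treated library lies far to the right.

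Since the median of all genes was shifted, every value was also computed after scaling by median ratio, in which genes above 1 FPKM in every library set 1 factor per library, the median of value over geometric mean. That moved the treated libraries up by 0.60 relative to vehicle on the log2 scale and left a median of -0.17 over all tested genes. The size of that shift depends on the genes used: it was 0.82 with all genes above 0 in every library, 0.35 with those above 5 FPKM and 0.24 with those above 10 FPKM. Scaled this way, 17 members were called higher and none lower, where 9.64% and 18.7% of all tested genes were called. Among the genes with a mean of at least 10 FPKM these shares were 18.7% and 14.2%. Members then had a median of 0.60, and the abundant genes 0.16. All 9 rises were still called, and none of the 9 falls was. Quantile normalization called 9 members higher and none lower, where 10.4% and 12.4% of all tested genes were called. Over the 4 scalings tried (median ratio, quantile, upper quartile and removal of the length trend), 8 of the 9 rises were called in each and Sec61b was not called in one of them, with the length trend removed.

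Transcript length went along with the direction. In the treated libraries long transcripts were low relative to short ones: the median deviation of the top quartile of genes by length minus that of the bottom quartile came to -0.93, -0.25 and -0.99 for ONX-0914 1, 3 and 4, compared with 0.04, -0.01 and -0.03 among the vehicle libraries. Among the 36 members, log2 fold change and the length of the longest protein-coding transcript had a Spearman correlation of -0.47 (-0.40 over the 10480 tested genes with a length) and a Pearson correlation with log10 length of -0.41. Genes are not independent replicates and share the same 6 libraries, so these are descriptions. The 18 shorter members, from 564 to 2756 bases, held 7 rises and 1 fall, and the 18 longer ones, from 2770 to 9333 bases, held 2 rises and 8 falls. With each library's length trend removed, 14 members were called higher and none lower, where 9.61% and 11.7% of all tested genes and 14.2% and 13.6% of the abundant ones were called, and the correlation over the members was -0.11 (Spearman). Each library's whole fitted curve was subtracted, so its overall shift from vehicle went too, and the median over all tested genes became 0.02. Median ratio scaling, with length left as it was, also called no member lower. The part of length apart from that shift in the members' falls was not tested.

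**Figure D2:**
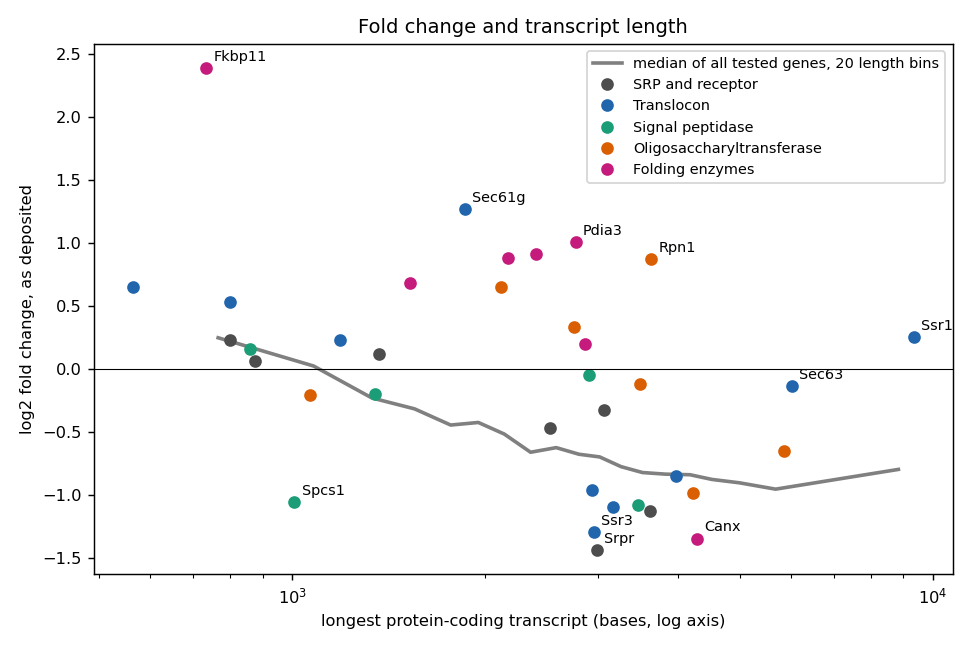
Log2 fold change as deposited (y axis) against the length of the longest protein-coding transcript (x axis, log scale) for the 36 genes, coloured by class, with the median of all tested genes in 20 length bins as a grey line. Pdia3 and Rpn1 lie well above the line at their length, Ssr1 and Sec63 are long and lie above it too, and Spcs1 is short and lies below it.

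The SRP and its receptor had 2 of 7 genes called lower, none called higher and a median of -0.33 in log2 (0.22 scaled by median ratio, where Srp9 and Srp14 were called higher). The share that fell is below the 43.5% of all tested genes and the 36.5% of those with a mean of at least 10 FPKM. The class median is above their medians of -0.64 and -0.41. Srp72 encodes one of the large SRP proteins. Vehicle 1, 2 and 4 had 30.2, 26.5 and 25.6 FPKM, and ONX-0914 1, 3 and 4 had 8.29, 23.3 and 8.71, which is -1.13 in log2 (SE 0.36, adjusted p = 0.0308). Its partner in the particle, Srp68, was at 22.0, 16.9 and 15.5 FPKM with vehicle and 9.11, 18.8 and 11.8 with ONX-0914, and was not called (-0.47, adjusted p = 0.214). Both were low in ONX-0914 1 and 4, while ONX-0914 3 was inside the vehicle range for Srp68 and just under it for Srp72. Srpr encodes the receptor subunit that binds the SRP. It was at 75.4, 67.8 and 57.4 FPKM with vehicle and 11.5, 56.7 and 20.6 with ONX-0914 (-1.44, SE 0.47, adjusted p = 0.0325). Srprb, the membrane-anchored receptor subunit, was not called (-0.33, adjusted p = 0.328), and its groups overlapped. Among the small SRP proteins, Srp9 had a vehicle mean of 230.2 ± 19.3 FPKM (SD, n = 3) and a treated mean of 252 ± 34.3 (n = 3), Srp14 averaged 135 ± 17.1 and 158 ± 4.49, and Srp19 averaged 46.6 ± 0.834 and 50.2 ± 14.4. None of these 3 was called as deposited, with log2 fold changes of 0.12, 0.23 and 0.06.

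In the translocon 2 of 10 genes rose, 3 fell and their median was 0.04 in log2 (0.64 scaled by median ratio, where 5 were called higher and none lower). As deposited 2.56% of all tested genes were called higher and 43.5% lower, so the share that fell is below the background. The 3 subunits of the SEC61 channel did not move together. Sec61a1, the subunit that forms the pore, was at 49.4, 38.9 and 37.9 FPKM with vehicle and 10.1, 41.9 and 15.8 with ONX-0914, and was not called (-1.10, SE 0.43, adjusted p = 0.0621). ONX-0914 3 was within the vehicle range while the other treated libraries were far under it. Sec61b, a small tail-anchored subunit, was at 275, 354 and 271 FPKM with vehicle and 502, 358 and 568 with ONX-0914, which is 0.65 in log2 (SE 0.23, adjusted p = 0.0417). Its lowest treated library barely exceeded the highest vehicle library, and with the length trend removed it was at 0.30 (adjusted p = 0.293). Sec61g, the other small subunit, was at 178, 188 and 211 FPKM with vehicle and 507, 309 and 635 with ONX-0914 (1.27, SE 0.27, adjusted p = 0.00618). All treated libraries lay clearly above vehicle, and the value was 1.87 after median ratio scaling and 1.73 after removal of the length trend.

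The helpers of the channel were split as well. Sec62, which assists chains that arrive after translation, was at 112, 114 and 97.1 FPKM with vehicle and 45.9, 87.8 and 51.7 with ONX-0914 (-0.85, SE 0.26, adjusted p = 0.0263; 0.02 with the length trend removed). Its partner Sec63, which recruits the chaperone BiP, averaged 45.8 ± 5.33 and 42.7 ± 13.4 FPKM and was not called (-0.14, adjusted p = 0.664). Sec63 was called higher with the length trend removed (0.78, adjusted p = 0.0187). Tram1, a membrane protein beside the channel, was at 87.5, 77.4 and 58.6 FPKM with vehicle and 24.7, 61.9 and 33.9 with ONX-0914 (-0.96, SE 0.33, adjusted p = 0.0377). The 4 subunits of the translocon-associated protein complex (TRAP) ranged from fall to no call. Ssr3 was at 118, 86.9 and 103 FPKM with vehicle and 20.6, 70.4 and 46.9 with ONX-0914 (-1.30, SE 0.39, adjusted p = 0.0235). Ssr1, Ssr2 and Ssr4 were not called, at 0.25, 0.23 and 0.53, and each was called higher scaled by median ratio (0.84, 0.82 and 1.13). Ssr4 was the most abundant translocon gene, at 403 ± 52.2 FPKM with vehicle and 588 ± 121 with ONX-0914 (n = 3 each).

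Signal peptidase had 2 of 5 genes called lower and a median of -0.20 in log2 (0.39 scaled by median ratio, where only Sec11c was called, and higher). The share that fell is near the 43.5% of all tested genes and the 36.5% of those with a mean of at least 10 FPKM. Spcs3 encodes an accessory subunit needed for peptidase activity. It was at 32.9, 25.6 and 31.1 FPKM with vehicle and 11.3, 14.1 and 15.3 with ONX-0914, which is -1.08 in log2 (SE 0.23, adjusted p = 0.00611). All treated libraries were about equally low, and the value in ONX-0914 3 alone was -1.03 (adjusted p = 0.0109). After median ratio scaling it was -0.51 (adjusted p = 0.11). Spcs1, a small accessory subunit, was at 222, 258 and 271 FPKM with vehicle and 58.8, 149 and 192 with ONX-0914 (-1.06, SE 0.38, adjusted p = 0.0461). Its transcript is short, 1008 bases, and removal of the length trend left it at -1.04 (adjusted p = 0.109). Spcs2 averaged 97.0 ± 18.1 and 96.4 ± 35.6 FPKM (-0.05, adjusted p = 0.883). The catalytic subunits Sec11a and Sec11c were not called. Sec11a was at 102, 109 and 110.5 FPKM with vehicle and 88.0, 100.3 and 91.3 with ONX-0914 (-0.20, adjusted p = 0.37), and Sec11c averaged 69.5 ± 3.20 and 77.9 ± 8.37 (0.16, adjusted p = 0.502).

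Among OST genes 2 of 7 rose, 1 fell and their median was -0.12 in log2 (0.48 scaled by median ratio, with 3 called higher and none lower, and 0.71 with the length trend removed, with 4 called higher). As deposited 2.56% of all tested genes were called higher and 43.5% lower. Rpn1, or ribophorin I, which feeds substrates to the catalytic subunit, was at 57.9, 58.9 and 48.4 FPKM with vehicle and 97.3, 108 and 98.1 with ONX-0914. Its log2 fold change was 0.87 (SE 0.19, adjusted p = 0.00698), 1.46 after median ratio scaling and 1.71 without the length trend. The 3 treated libraries were close to each other and far above vehicle. Ddost, a structural subunit, was at 86.3, 78.7 and 67.8 FPKM with vehicle and 134, 113 and 121 with ONX-0914 (0.65, SE 0.19, adjusted p = 0.0219). Rpn2, ribophorin II, averaged 86.5 ± 10.3 and 109 ± 17.2 FPKM and was not called (0.33, adjusted p = 0.209), but was called higher scaled by median ratio (0.92, adjusted p = 0.0271). The small subunits Dad1 and Ostc were not called, at -0.12 and -0.21. STT3A and STT3B are the alternative catalytic subunits, the first working at the channel and the second also on chains that were missed. Stt3b was at 25.6, 20.1 and 20.9 FPKM with vehicle and 8.64, 16 and 8.6 with ONX-0914 (-0.99, SE 0.28, adjusted p = 0.0203). Stt3a was at 47.9, 38.6 and 39.6 FPKM with vehicle and 22.3, 39.2 and 20.5 with ONX-0914 and was not called (-0.65, adjusted p = 0.0743). In the catalytic genes ONX-0914 3 was again the treated library nearest to vehicle.

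Folding enzymes had 5 of 7 genes called higher and 1 lower, with a median of 0.88 in log2 (1.48 after median ratio scaling and 1.45 without the length trend, each with 6 higher and none lower). As deposited 2.56% of all tested genes were called higher and 43.5% lower. The class medians in ONX-0914 1, 3 and 4 were 0.90, 1.14 and 0.68 above the vehicle mean, while those of the SRP class were -0.58, 0.13 and -0.54. Fkbp11, an ER membrane proline isomerase that is a known target of the unfolded protein response, lies on chromosome 15 from 98724366 to 98728198 of GRCm38. It was at 17.5, 18.6 and 14.8 FPKM with vehicle and 135, 65.3 and 90.6 with ONX-0914. Its log2 fold change of 2.39 (SE 0.28, adjusted p = 0.00125) was the largest among the 36 genes, against 2.97 after median ratio scaling and 2.21 after removal of the length trend. The soluble ER proline isomerase gene Fkbp2 was at 145, 158 and 142 FPKM with vehicle and 319, 196 and 213 with ONX-0914 (0.68, SE 0.22, adjusted p = 0.0338). For both genes ONX-0914 1 was the highest library and no treated library reached into the vehicle range.

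The disulfide isomerase genes Pdia3, Pdia4 and Pdia6 rose. Pdia3, whose product works on glycoproteins held by calnexin and calreticulin, was at 221, 218 and 165 FPKM with vehicle and 398, 469.6 and 350.5 with ONX-0914 (1.01, SE 0.21, adjusted p = 0.00561). Pdia4 was at 73.3, 69.0 and 62.9 FPKM with vehicle and 128, 152 and 110.1 with ONX-0914 (0.91, SE 0.20, adjusted p = 0.0072). Pdia6 was at 110.3, 136 and 88.5 FPKM with vehicle and 143, 283 and 208 with ONX-0914 (0.88, SE 0.28, adjusted p = 0.0284). In all 3 genes ONX-0914 3 was the highest library, and scaled by median ratio they lay between 1.48 and 1.61. P4hb, the most abundant of the 36 genes, also encodes a subunit of collagen prolyl hydroxylase and of the microsomal triglyceride transfer protein. It was at 847, 778 and 694 FPKM with vehicle and 743, 964 and 972 with ONX-0914 and was not called (0.20, adjusted p = 0.414). P4hb was called higher after median ratio scaling (0.80, adjusted p = 0.0291). Canx, the membrane lectin calnexin, was the exception in the class. It was at 114, 104 and 98.1 FPKM with vehicle and 19.9, 93.4 and 35.5 with ONX-0914 (-1.35, SE 0.45, adjusted p = 0.036), and -0.76 scaled by median ratio (adjusted p = 0.18).

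**Figure D3:**
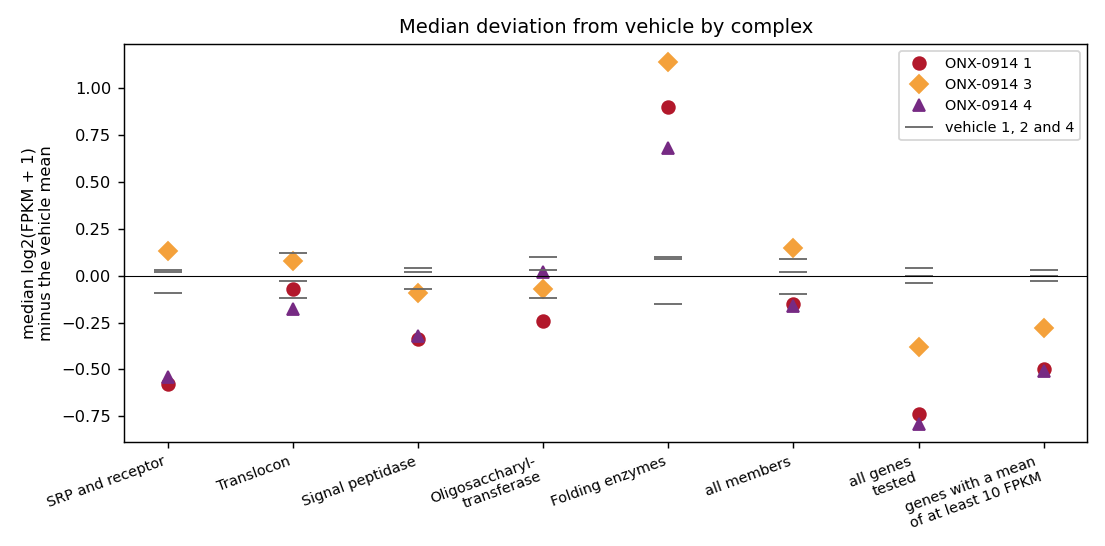
Median deviation from the vehicle mean on the log2(FPKM + 1) scale (y axis) for each class, all members, all tested genes and tested genes with a mean of at least 10 FPKM (x axis). Symbols are the ONX-0914 libraries and dashes the vehicle libraries; the folding enzymes are at 0.90, 1.14 and 0.68 in ONX-0914 1, 3 and 4, and all tested genes at -0.74, -0.38 and -0.79.

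Pdia6 and Canx are shown by promoter because they moved in opposite directions and yet were the only members whose promoter held a full ER stress response element (ERSE), the site known for ATF6 with NF-Y. The ERSE was searched as CCAAT, any 9 bases and CCACG, on both strands, in the 300 bases from 250 before to 50 after each start site in RefSeq's table for GRCm38.p6. A full match was found in 0.119% of 32851 promoters, and in 2 of the 28 members that have an entry. The 8 members without one are Srp19, Srp68, Sec61a1, Ssr2, Tram1, Spcs3, Sec11c and Ostc. The ERSE-II (ATTGG, any 1 base and CCACG) was in 0.0365% of all promoters and in 0 members, and TGACGTGG, the core of a site for XBP1, in 0.676% and in 0 members. The parts are common: CCAAT was in 37.4% of all promoters and in 19 of the 28 members, and CCACG in 32.8% and in 20 of the 28. The share of members is the higher one for both parts. Member counts are per gene over all its start sites in the table, while the percentages are per promoter. They are unlike measures, and the difference was not tested. Each full ERSE also counts as a CCAAT and a CCACG match, and TGACGTGG holds CCACG on its other strand. The bases before the genes Pdia6 (chr12:17266339-17266544, plus strand) and Canx (chr11:50325674-50325923, minus strand) are given 5′ to 3′ with the ERSE in capitals, from 98 to 80 and from 145 to 127 bases before the start site. Positions are counted from the RefSeq start site, and the printed Pdia6 bases stop short of it, where the gene begins in GENCODE M21.
Pdia6: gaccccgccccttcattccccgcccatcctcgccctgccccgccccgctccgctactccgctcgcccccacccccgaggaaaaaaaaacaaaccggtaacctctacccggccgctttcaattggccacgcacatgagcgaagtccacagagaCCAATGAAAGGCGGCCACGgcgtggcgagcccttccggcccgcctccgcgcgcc
Canx: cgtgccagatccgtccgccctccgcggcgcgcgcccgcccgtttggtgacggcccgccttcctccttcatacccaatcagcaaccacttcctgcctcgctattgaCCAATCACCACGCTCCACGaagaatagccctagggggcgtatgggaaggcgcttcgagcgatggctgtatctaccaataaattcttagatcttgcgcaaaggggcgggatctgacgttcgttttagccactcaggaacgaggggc

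Fkbp11 and Pdia4 rose without a full match in these windows, and are shown for contrast. For Fkbp11 the window before its upstream start site (chr15:98728199-98728448) holds neither CCAAT nor CCACG. Its other start site in the table lies inside the gene, over a coding exon, and is not printed. The window there held both parts, CCAAT 1 time and CCACG 2 times. For Pdia4 (chr6:47813513-47813762) the capitals mark CCAAT on either strand. Its single CCACG lies after the start site, outside the printed bases. Both genes are on the minus strand.
Fkbp11: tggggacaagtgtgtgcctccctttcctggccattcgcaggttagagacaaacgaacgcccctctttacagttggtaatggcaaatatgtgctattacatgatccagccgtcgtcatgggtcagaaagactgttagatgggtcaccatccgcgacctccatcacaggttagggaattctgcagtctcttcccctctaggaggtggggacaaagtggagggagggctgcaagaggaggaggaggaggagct
Pdia4: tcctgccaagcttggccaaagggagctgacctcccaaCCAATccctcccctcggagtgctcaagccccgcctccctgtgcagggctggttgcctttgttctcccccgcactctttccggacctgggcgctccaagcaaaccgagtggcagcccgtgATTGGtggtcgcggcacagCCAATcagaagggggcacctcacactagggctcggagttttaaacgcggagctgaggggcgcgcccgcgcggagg
A match is a description of letters, and these data do not measure binding.

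Ratios between paired genes inside a library depend little on a single factor per library, though they can move with the length trend where the transcripts differ in length, and 8 pairs were compared with a two-sided exact permutation test. With 3 libraries against 3 its smallest p is 0.1, so no pair can pass a threshold of 0.05. The log2 ratio of Fkbp11 to Fkbp2 lay at -2.98, -3.02 and -3.18 for the vehicle libraries, then at -1.23, -1.57 and -1.22 for ONX-0914 1, 3 and 4, a difference of 1.72 (exact permutation p = 0.1, adjusted p = 0.16 over the 8 pairs). The ratio of Stt3a to Stt3b went from a mean of 0.89 ± 0.02 (SD, n = 3) to 1.23 ± 0.05 (n = 3), a difference of 0.34, with the same p. For Sec11c to Sec11a the means were -0.62 ± 0.02 and -0.26 ± 0.05, a difference of 0.36. Sec62 to Sec63 went from 1.22 ± 0.15 to 0.51 ± 0.08, a difference of -0.71. In each of these 4 pairs, and for Srprb to Srpr, the libraries of the groups did not overlap. For Srprb to Srpr the nearest libraries of the groups were at -1.77 (vehicle 4) and -1.75 (ONX-0914 3). The ratios of Pdia4 to Pdia3 (difference -0.10), Ssr4 to Ssr1 (0.28) and Sec61b to Sec61a1 (1.75) overlapped between groups. With the length trend removed, an alternative chosen after seeing the data, the differences were 1.20 for Fkbp11 to Fkbp2, 0.38 for Stt3a to Stt3b and -0.76 for Sec62 to Sec63, with groups apart. Srprb to Srpr was at 1.12, with groups apart as well. The difference for Sec11c to Sec11a was 0.04, with overlap. Those for Sec61b to Sec61a1, Ssr4 to Ssr1 and Pdia4 to Pdia3 were 0.62, -0.67 and -0.18, also with overlap. The ratio of Sec61b to Sec61a1 was 5.51 and 5.08 in ONX-0914 1 and 4 but 3.07 in ONX-0914 3, within the vehicle range of 2.45 to 3.15.

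**Figure D4:**
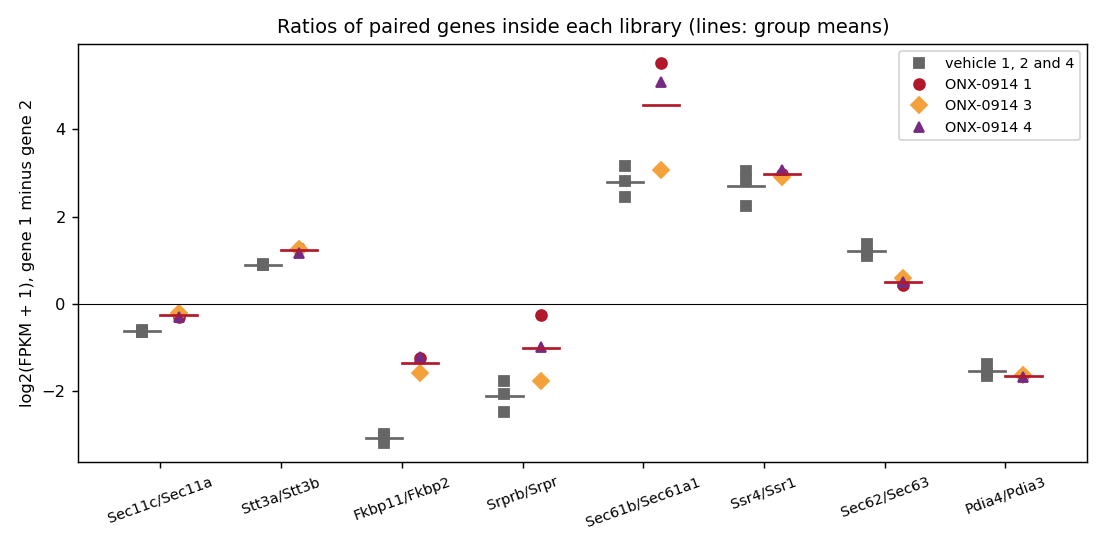
Difference of log2(FPKM + 1) between the genes of each pair (y axis) in each library, for 8 pairs (x axis), with lines at the group means. The Fkbp11 to Fkbp2 values rise from about the vehicle mean of -3.06 to a mean of -1.34, and the Stt3a to Stt3b values of each group lie close together at means of 0.89 and 1.23.

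**Figure D5:**
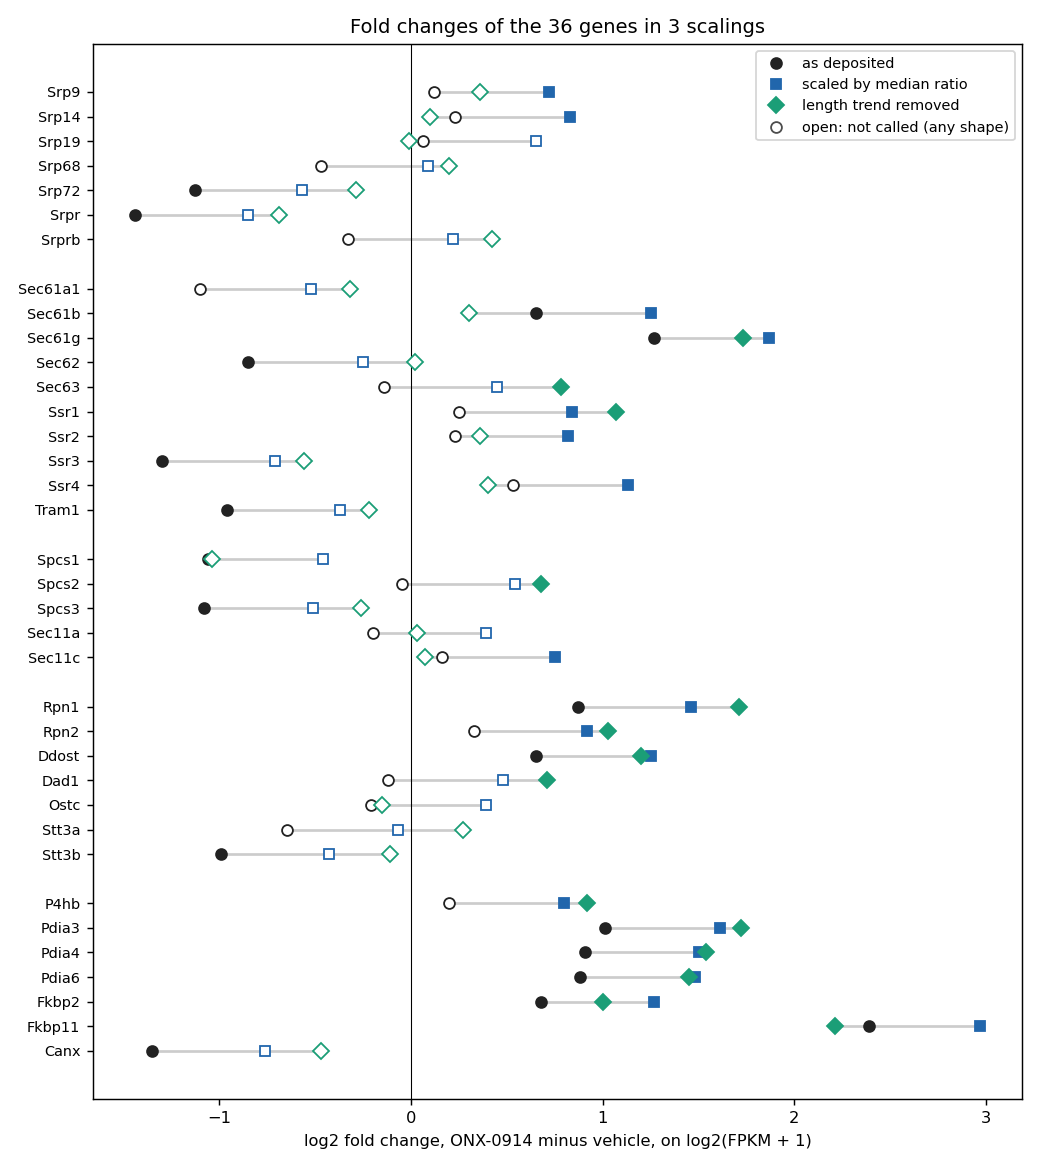
Log2 fold change of the 36 genes (x axis, genes on the y axis) in the deposited values, after median ratio scaling and after removal of the length trend. Filled symbols are called at an adjusted p under 0.05 and open ones are not. The 9 genes that fell as deposited have open symbols in the other scalings, and Fkbp11, Pdia3, Pdia4, Pdia6, Rpn1, Ddost, Fkbp2 and Sec61g have filled symbols in all 3.

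Other genes of the pathway, from lists that are not part of the 36, gave the setting. Of 5 further OST subunits 2 rose and 1 fell: Tmem258 went from 170.4 ± 25.8 to 370.3 ± 101 FPKM (n = 3 each; 1.09, adjusted p = 0.00843) and Krtcap2 from 67.3 ± 8.12 to 109 ± 15.9 (0.69, adjusted p = 0.0222). Both were called higher with the length trend removed too (0.78 and 0.82). Tusc3, a subunit with oxidoreductase activity that is found in the STT3B form of the OST, went from 14.5 ± 2.18 to 7.07 ± 1.29 FPKM (-0.95, adjusted p = 0.0149). It was not called after median ratio scaling (-0.40, adjusted p = 0.265) or without the length trend (-0.62, adjusted p = 0.0693). Of 27 genes that build the dolichol-linked sugar tree 7 fell and none rose, among them Alg10b (-2.13) and Nus1 (-1.74), and their median was -0.42. The share that fell is below the 43.5% of all tested genes, and 3 rose and 3 fell after median ratio scaling and 2 and 2 without the length trend. In the list of glucosidases and the calnexin cycle, 1 of 9 tested genes rose and 4 fell (1 and 3 after median ratio scaling, 4 and 3 without the length trend). The share that fell as deposited is near the 43.5% of all tested genes. Calr, or calreticulin, the soluble relative of calnexin, was at 332, 337 and 249 FPKM with vehicle and 880.5, 958 and 664 with ONX-0914 (1.44, adjusted p = 0.00218), opposite in direction to Canx. The falls there included Mcfd2 (-1.98) and Lman1 (-1.89), the cargo receptor pair for clotting factors, and Man1b1 (-1.56).

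Of 25 tested genes for other routes of targeting and insertion, 9 fell and none rose, led by Get1 (-2.00), Mmgt1 (-1.92) and Emc10 (-1.63), with a median of -0.51. That share too is below the 43.5% of all tested genes, and 6 were called higher and 3 lower after median ratio scaling and 5 and 1 without the length trend. Get1 was listed at 0 in ONX-0914 3 and 4. Of 21 tested genes for other disulfide and proline isomerases 2 rose, Ppib (0.94) and Ero1b (0.78), and 12 fell, led by Ppic (-2.59), Tmx1 (-1.83) and Tmx2 (-1.72). The shares that rose and fell are both above the 2.56% and 43.5% of all tested genes. The median of this list was -0.82, below the -0.64 of all tested genes, unlike that of the folding enzymes among the 36. After median ratio scaling 6 of the 21 were called higher and 5 lower, and without the length trend 5 and 4 of the 19 with a length. Beyond the ER, 8 of 21 genes of COPII export and the KDEL receptors fell and none rose, with Sar1b (-1.76), Sec23a (-1.52) and Sec24c (-1.46) the lowest. In the Golgi list 10 of 14 tested genes fell and none rose, led by St6gal1 (-3.28), Man2a1 (-2.27) and Man1a2 (-1.90). The share that fell is below the 43.5% of all tested genes for the export list and above it for the Golgi list. These lists had medians of -0.81 and -0.98, below the -0.64 of all tested genes. After median ratio scaling 3 export genes were called higher and 3 lower, and 6 Golgi genes lower and none higher. Without the length trend these were 2 and 2 export genes, and 4 Golgi genes lower. The medians of the export and Golgi lists were -0.24 and -0.60 scaled by median ratio (all tested genes -0.17). Without the length trend they were -0.03 and -0.23 (all tested genes 0.02).

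Of 12 genes for regulators of the unfolded protein response 2 rose and 5 fell as deposited. Over all tested genes 2.56% were called higher and 43.5% lower, so the share that fell is near the background. After median ratio scaling 3 were called higher and 1 lower, and without the length trend 2 and 0. Atf4 rose from 77.6 ± 14.8 to 129 ± 18 FPKM (n = 3 each; 0.74, adjusted p = 0.021) and Ddit3, which encodes CHOP, from 9.99 ± 4.58 to 21.6 ± 6.81 (1.07, adjusted p = 0.032). Without the length trend Atf4 was still called (1.15) and Ddit3 was not (1.00, adjusted p = 0.0862). Atf6 and Ern1, which encodes IRE1, fell (-1.55 and -1.10), and with the length trend removed neither was called (-0.66 and -0.20). After median ratio scaling Atf6 was called lower (-1.14, adjusted p = 0.0422) and Ern1 was not. Xbp1 was at 157, 221 and 132 FPKM with vehicle and 54.6, 268 and 153 with ONX-0914 and was not called (-0.34, adjusted p = 0.576). Gene-level values do not separate the spliced form of Xbp1.

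Markers of other cells were read beside these results, since bulk values cannot tell fewer cells of a type from less RNA per cell. The labelled tissue carries its markers: the 10 hepatocyte genes summed to between 96978 and 99495 FPKM with vehicle and between 76857 and 113265 with ONX-0914. Alb and Ttr make up most of that sum. Of the 10, Fgb (1.17) and Apoa1 (0.64) rose and Hnf4a (-2.23) and Cps1 (-1.66) fell, and neither fall was called after median ratio scaling or without the length trend. Plasma cells are rich in Fkbp11, Ssr4 and Sec11c. The 12 plasma and B cell genes summed to 41.7 to 61.7 FPKM with vehicle and 49.6 to 61.9 with ONX-0914, with 6 of them under 1 FPKM in every library, and 1 of 6 tested, Derl3, called higher. Derl3 is also a gene of ER-associated degradation. Of 12 acinar pancreas genes 8 were at 0 in every library (Cpa1, Cpb1, Cel, Pnlip, Try4, Try5, Ctrb1 and Amy2a5), with sums of 19.2 to 26.9 and 17.9 to 27.6 FPKM made up mostly by Cela1 and Cela2a. The 8 cholangiocyte genes summed to 79.5 to 82.8 FPKM with vehicle and 75.1 to 125 with ONX-0914. Sums were lower with ONX-0914 for 8 endothelial genes (137 to 147 against 23.0 to 39.8 FPKM), 8 Kupffer cell genes (757 to 1266 against 394 to 682) and 8 stellate cell genes (327 to 403 against 90.3 to 199). Of the Kupffer genes 5 fell, and Clec4f, C1qa and Marco were not called (-0.01, -0.01 and 0.14). Without Cd5l, left out after seeing the data, the Kupffer sums overlapped, at 376 to 601 and 279 to 585 FPKM. Of the stellate genes 5 fell, and Des, Ecm1 and Rgs5 were not called (-0.39, -0.45 and -0.95). Dcn made up most of the stellate sum with vehicle, at 274, 213 and 214 FPKM. After median ratio scaling 3 of the 8 stellate genes were called lower. The part of these cells in the falls among the 36 genes was not tested.

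Reads of 15 members could be shared with another gene, since their exons overlap one in GENCODE M21, and strand use in counting is not stated. On the opposite strand these include Pdia3 with Catsper2, Pdia6 with Atp6v1c2, Srpr with Tirap and Fam118b, Spcs1 with Glt8d1 and Spcs3 with Asb5. On the same strand they are Sec11a with Nmb, Srprb with Gm20425 and Pdia4 with Mir704. Deposited values summed to between 993264 and 1247789 FPKM per library. Read totals are not given, and the spacing of low values put vehicle 2 and 4 at 1.29 and 1.13 times the depth of vehicle 1, and ONX-0914 1, 3 and 4 at 1.02, 0.865 and 0.911 times.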

How the data were processed

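Gene-level FPKM values of 6 liver libraries were used as the authors deposited them, 1 column per library matched by name to its title. Per the submitters' processing notes HISAT2 2.0.1, featureCounts 1.6.0, edgeR, cutadapt 1.11 and FastQC 0.11.5 were used, and GRCm38 (mm10) is named as the build. Their order, the annotation and the strand setting are not given in the sources used here. Count tests were planned for a count table and were not run, because FPKM are no counts. The absolute depth of the libraries is unknown.

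Genes above 1 FPKM in at least 3 libraries were fitted as log2(FPKM + 1) by limma (version 3.58.1, R 4.3.3) using a variance trend and Benjamini-Hochberg adjustment, and called at an adjusted p under 0.05. The pseudocount understates changes of low genes. Simulated data with known changes were used to check the fit. They gave both groups the spread of the vehicle libraries and no overall shift or length trend. The check therefore does not cover a shift of most genes or treated libraries that are unlike each other. Alternatives were 2 other pseudocounts (0.1 and 0.5), 2 other filters, 4 scalings, a replicate block, left-out libraries, ONX-0914 3 alone and a fold limit. The length trend (lowess, span 0.3) used the longest protein-coding transcript in GENCODE M21, known for 97.6% of tested genes. The whole curve, level included, was subtracted from each library. Ratios of paired genes were compared with exact permutation tests (scipy 1.17.1). All 36 members are named, and from each other pathway list up to 3 called genes per direction with the greatest change, besides regulators and markers the text needs. Members and lists were chosen with earlier results of these data known. Titles share the numbers 1 and 4 between groups, and the labels do not say that they pair animals.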

Additional observations from a re-analysis of the deposited data

How the results depend on the processing

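The counts of members and of all tested genes moved with scaling and with the libraries used. As deposited, 275 genes were called higher and 4673 lower. All genes called higher and lower numbered 1036 and 2007 scaled by median ratio, 1118 and 1334 quantile normalized, 1319 and 1654 upper quartile scaled, and 1007 and 1222 with the length trend removed. Members called higher and lower in these numbered 17 and 0, 9 and 0, 20 and 0, and 14 and 0. A fold limit of 1 in log2 left 110 and 3062 genes and 3 and 6 members, and a mean of at least 5 FPKM left 2470 genes lower. No filter left 3 members lower. ONX-0914 3 alone gave 2992 genes and 2 members lower. Scaled by median ratio with ONX-0914 3 left out, which was chosen after seeing the data, 2164 genes and 20 members were higher and 3582 genes and 7 members lower. With 1 library left out, genes higher ranged from 92 to 740, genes lower from 2590 to 6514, members higher from 5 to 10 and members lower from 1 to 13, the highest each without ONX-0914 3.

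With a replicate block on the shared numbers 1 and 4, 604 genes were higher and 5973 lower, 10 members higher and 12 lower, and Srp19 was at -0.13. In that fit the treatment effect rests on the libraries numbered 1 and 4 only. The numbers of vehicle 2 and ONX-0914 3 occur in 1 library each, so the block absorbs both. The setting therefore leaves out ONX-0914 3 and is no separate check on all 6 libraries. Same-numbered libraries had correlations of 0.00 and 0.13 in their deviations. These cannot decide whether the numbers pair animals, since no correlation of differently numbered libraries stands beside them. The numbers were not taken as pairs because the labels do not say that they are.

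Log2 fold changes of these members changed sign, and of them only Sec62 had been called. With the length trend removed they were -0.01 (Srp19), 0.20 (Srp68), 0.42 (Srprb), 0.02 (Sec62), 0.78 (Sec63), 0.68 (Spcs2), 0.03 (Sec11a), 0.71 (Dad1) and 0.27 (Stt3a). Scaled by median ratio they were 0.09 (Srp68), 0.22 (Srprb), 0.45 (Sec63), 0.54 (Spcs2), 0.39 (Sec11a), 0.48 (Dad1) and 0.39 (Ostc). Quantile normalized they were 0.22 (Srp68), 0.38 (Srprb), 0.34 (Sec63), 0.24 (Spcs2), 0.09 (Sec11a), 0.03 (Dad1) and 0.05 (Ostc). Upper quartile scaled they were 0.24 (Srp68), 0.37 (Srprb), 0.60 (Sec63), 0.70 (Spcs2), 0.55 (Sec11a), 0.64 (Dad1), 0.55 (Ostc) and 0.08 (Stt3a). In ONX-0914 3 alone they were 0.07 (Srp68), 0.13 (Srprb), 0.01 (Sec61a1), 0.34 (Sec63), -0.05 (Ssr1) and 0.51 (Spcs2). Scaled by median ratio without ONX-0914 3 they were 0.10 (Srprb), 0.33 (Sec63), 0.38 (Spcs2), 0.46 (Sec11a), 0.60 (Dad1) and 0.44 (Ostc). With 1 library left out, Srp19 ranged from -0.12 to 0.30, Sec63 from -0.37 to 0.01 and Spcs2 from -0.33 to 0.09. The cause of these changes was not tested. No ratio of paired genes changed sign with another pseudocount or a library left out, and with the length trend removed only Ssr4 to Ssr1 did (-0.67). DESeq2 and a CPM filter were not run, since the values are not counts. Depth is known only relative to vehicle 1, so no counting error can be given.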

Other observations

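Relatives of the folding enzymes differed in direction. These genes were picked after their values were seen, and no test of the contrast between them was run. Ppib, the ER cyclophilin B, was at 426, 505 and 410.3 FPKM with vehicle and 970.0, 713 and 896 with ONX-0914 (0.94 in log2, adjusted p = 0.00654), while Ppic, cyclophilin C, was at 12.6, 13.9 and 13.9 and at 1.76, 2.44 and 0.47 (-2.59, adjusted p = 0.00153). Both were also called after median ratio scaling (1.54 and -2.15) and without the length trend (0.87 and -2.33). The oxidases that recharge disulfide isomerases were also apart: Ero1b was at 19.6, 19.7 and 17.8 FPKM with vehicle and 41.5, 37 and 23.9 with ONX-0914 (0.78), and Ero1a at 7.22, 4.84 and 6.21 and at 1.28, 3.24 and 0.75 (-1.45). Scaled by median ratio these were 1.35 and -1.03, both called. Fkbp7, Fkbp9 and Fkbp14 fell (-0.99, -1.41 and -1.28), against the rises of Fkbp2 and Fkbp11, and none of these 3 was called scaled by median ratio, while Fkbp7 was called without the length trend (-1.07). The sums of endothelial and stellate cell markers were lower in each treated library, though Dcn made up most of the stellate sum with vehicle. The part of these cells in the falls given here was not tested.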
